A study of Mus musculus with 12 samples.

Results

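The interleukin 1 family was followed through LPS tolerance of mouse macrophages by 10 genes. They are the ligands Il1a, Il1b, Il18 and Il33, the antagonists Il1rn and Il18bp, and the receptors Il1r1, Il1r2, Il1rap and Il1rl1. The genes were chosen as a family and found by their symbols in the platform annotation, which named probe sets for 9 of the 10 among 18193 genes measured. Il1rl1 was not analysed here. Macrophages were grown from C57Bl/6 bone marrow in M-CSF, the macrophage growth factor. The 4 groups held 3 biological replicates each, lettered A, B and C. Restimulated cells had 18 h of 100 ng/ml LPS (lipopolysaccharide, from the outer membrane of Gram-negative bacteria), new medium, 2 h of rest and 100 ng/ml LPS again. Pretreated cells had the same 18 h of LPS and the rest, with no second LPS. LPS once cells had no pretreatment and 100 ng/ml LPS after the rest, and untreated cells had no LPS. How long the last stimulation ran, and whether the letters mark separate mice, is not stated in the labels used here.

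Interleukin 1 alpha and interleukin 1 beta are inflammatory cytokines that share a receptor, a pair of chains encoded by Il1r1 and Il1rap. Both are made as precursors, and the beta form is released after cleavage by caspase-1 in an inflammasome. The product of Il1rn occupies the same receptor without starting a signal, the product of Il1r2 binds the cytokine as a decoy, and Il18bp encodes a soluble protein that neutralises interleukin 18. Macrophages make interleukin 1 in response to LPS through Toll-like receptor 4, and the receptors for interleukin 1 and LPS share the adaptor encoded by Myd88.

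The arrays had median intensities of 29.7 to 31.6 units. The restimulated C array stood apart, with a mean intensity of 247, against 310 to 317 on the other 11 arrays. Log2 changes of family genes printed below from the main fit that use this array are also given without it. The dim genes Il33 and Il1r2 are excepted. The within-array differences, family medians, counts at an unadjusted p, values of other probe sets, likeness of pattern and deviations by replicate letter include this array and are not given without it. Of 8 macrophage markers, 7 were at 100 units or more on all 12 arrays. All 6 T, NK and B cell markers, all 4 dendritic cell markers and all 8 mast cell and basophil markers were under 100 units on every array. Some stromal and neutrophil markers were at 100 units or more and differed by replicate letter, and their values stand beside the results that follow the letters. The endothelial markers Pecam1 and Cdh5 were under 100 units on every array, and Kdr reached at most 121 units. In RNA of whole cultures, fewer cells of a type and less RNA per cell cannot be told apart.

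The 300 bases around an annotated start of each of Il1a, Il1b and Il1rn are printed, 250 before it and 50 after it. These 3 genes had the largest changes of the family after LPS. Sequences are from RefSeq on build GRCm38.p6, 5′ to 3′ on the strand of the gene. Il1a and Il1b are neighbouring protein-coding genes on chromosome 2, both on the minus strand, at chr2:129309923-129310222 and chr2:129371090-129371389. Il1rn lies on the plus strand of the same chromosome and has 3 annotated starts, and the window shown is chr2:24345121-24345420. Which start the probe sets measured cannot be told apart. The annotated genes reach 129310186 for Il1a and 129371164 for Il1b, upstream of the starts taken here, so positions given below depend on the start. Capitals mark matches on either strand to a pattern for NF-kB (GGG, 5 bases of any kind, then CC), TGANTCA for AP-1 or GAGGAA for PU.1.
Il1a: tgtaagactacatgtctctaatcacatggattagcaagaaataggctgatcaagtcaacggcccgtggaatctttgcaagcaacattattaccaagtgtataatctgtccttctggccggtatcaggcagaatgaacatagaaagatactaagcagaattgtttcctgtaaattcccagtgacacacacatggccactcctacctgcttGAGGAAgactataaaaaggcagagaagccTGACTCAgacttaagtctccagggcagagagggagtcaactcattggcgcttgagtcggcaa
Il1b: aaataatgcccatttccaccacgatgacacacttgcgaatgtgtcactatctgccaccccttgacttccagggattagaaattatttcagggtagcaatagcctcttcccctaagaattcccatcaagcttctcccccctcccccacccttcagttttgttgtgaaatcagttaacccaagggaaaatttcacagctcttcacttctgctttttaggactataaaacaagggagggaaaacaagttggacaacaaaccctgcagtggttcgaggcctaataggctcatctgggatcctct
Il1rn: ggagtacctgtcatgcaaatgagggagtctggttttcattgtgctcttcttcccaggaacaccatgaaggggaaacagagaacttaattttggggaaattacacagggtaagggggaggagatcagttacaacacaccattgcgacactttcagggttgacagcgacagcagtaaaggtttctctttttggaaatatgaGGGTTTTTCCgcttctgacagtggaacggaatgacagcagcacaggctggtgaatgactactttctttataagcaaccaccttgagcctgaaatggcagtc
In the Il1a window the capitals are a PU.1 match that begins 41 bases before the start and an AP-1 match that begins 12 bases before it. The Il1rn window shown holds an NF-kB match 51 bases before its start, and the Il1b window holds none of the 3 patterns. The Il1rn content depends on the start taken: the window of the most upstream start holds 2 NF-kB matches, 54 and 4 bases before it, and an AP-1 match 141 bases before it. The window of the remaining start overlaps the one shown and holds the same NF-kB match. Of 32851 promoter windows of this length, 50.8% held the NF-kB pattern, 7.81% the AP-1 pattern and 28.3% the PU.1 pattern.

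After a first LPS exposure 5 of the 9 measured genes rose: both interleukin 1 ligands, their antagonist Il1rn, Il18 and the receptor chain Il1rap. Calls came from a limma fit of log2(intensity + 16) on the 12 arrays and needed a 2-fold change and an adjusted p under 0.05 (Benjamini-Hochberg, 18193 genes). By that rule 3.90% of all genes were higher in LPS once cells and 9.10% lower, and 0 of the 9 were lower, also at an unadjusted p under 0.05. The median log2 change of the 9 was 1.15, against 0.04 over all genes.

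**Figure D1:**
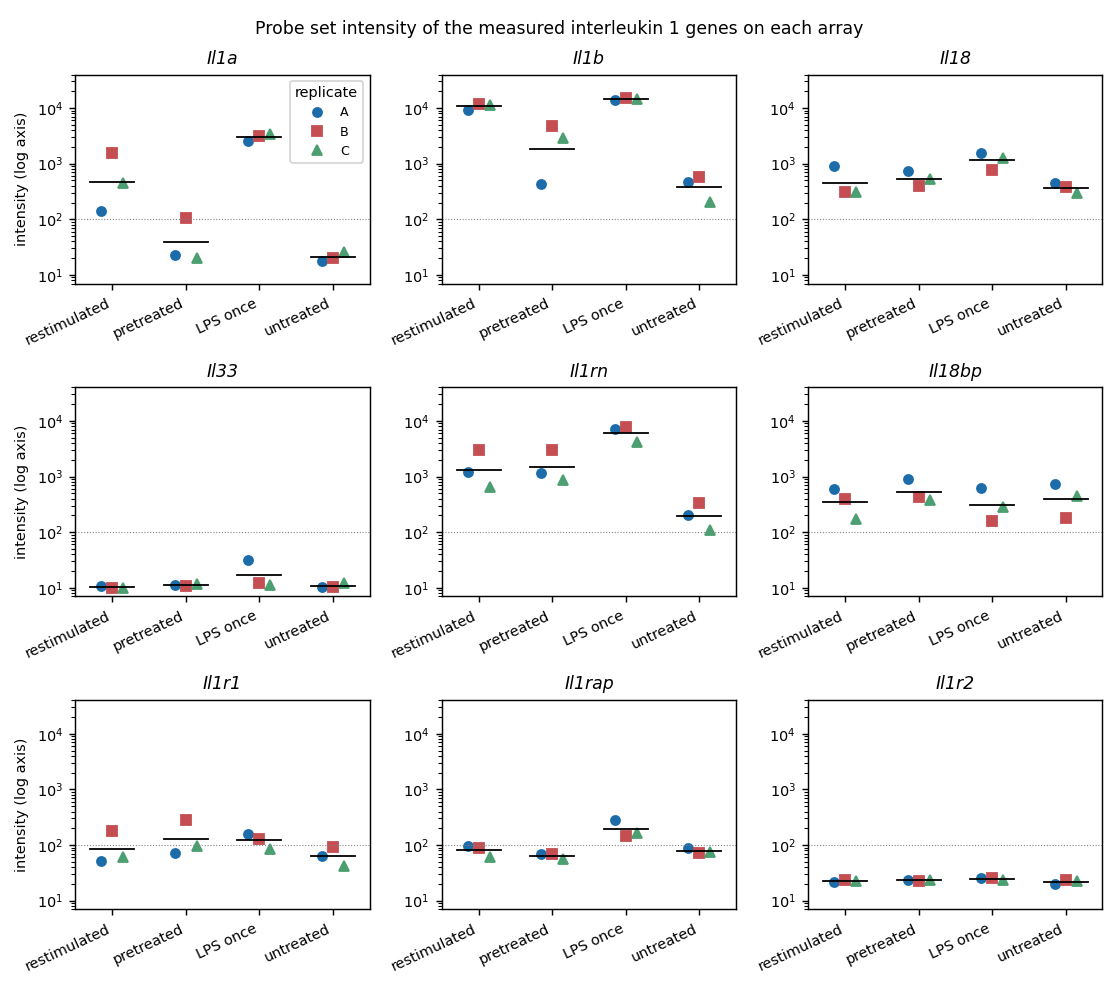
Intensity of the probe set used for each gene on each of the 12 arrays (log axis), with symbols for the replicate letters, a line at the group mean of log2(intensity + 16) and a dotted line at 100 units. Il1a, Il1b, Il1rn, Il18 and Il1rap had all LPS once arrays above all untreated arrays. Il33 and Il1r2 lay under 100 units on all 12 arrays.

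Il1a, the ligand that is active also as a precursor, had 2545, 3082 and 3467 intensity units in LPS once cells (replicates A, B and C), against 17.8, 20.4 and 26.2 in untreated cells. The groups lay far apart, and the untreated values were below the array medians. The log2 change was 6.34 ± 0.73 (SE, n = 3 per group, limma adjusted p = 0.000171), 81.1-fold on this scale. Since the untreated values are close to the 16 units added, the size depends on that number: the log2 change was 7.08 with 1 unit added and 5.17 with 64, both called. Il1b, the inflammasome-processed ligand, had 13662, 15002 and 14765 units in LPS once cells, against 467, 564 and 205 in untreated cells. Its log2 change was 5.19 ± 0.73 (limma adjusted p = 0.000534), 36.6-fold. The LPS once values were 88.6% to 93.5% of the highest value on the same array, so the top of the scale may cap them. Both calls held without any of the 12 arrays.

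Cells that had met LPS before raised Il1a again, to a lower level than cells exposed once. Il1a had 139.5, 1548 and 446 units in restimulated cells, against 22.5, 105.5 and 20.0 in pretreated cells. Replicate B was the highest in both groups, and the groups did not overlap. The log2 change in this second response was 3.13 ± 0.73 (limma adjusted p = 0.0461), 8.74-fold on this scale. It was 3.62 with 1 unit added (adjusted p = 0.0309) and 2.36 with 64, where it was not called (adjusted p = 0.0724). It was the 1 gene of the 9 called, where 0.665% of all genes were higher and 1.29% lower (121 and 234 genes, or 173 and 163 after quantile normalization). Limma called 0 of the 9 lower, also at an unadjusted p under 0.05. Without the restimulated C array the log2 change of Il1a was 3.16 and the adjusted p 0.110, so that 0 of the 9 were called. The call was lost without any 1 of 9 of the 12 arrays (each untreated and LPS once array, pretreated A and C, and restimulated C), with adjusted p of 0.0565 to 0.180. It was also lost on the 6 arrays of these groups alone (adjusted p = 0.252). The change was 3.94 without restimulated A and 2.28 without restimulated B, both called.

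Il1b had 9085, 11977 and 11273 units in restimulated cells, against 437, 4820 and 2938 in pretreated cells. Every restimulated array was above every pretreated one, but the pretreated arrays spread widely, with replicate A at the untreated level. The log2 change of 2.52 ± 0.73 was not called (limma adjusted p = 0.0879, 95% interval 0.90 to 4.15). Without pretreated B it was 3.21 and called (adjusted p = 0.0297), without pretreated A it was 1.504, and without restimulated C it was 2.49 (adjusted p = 0.202), neither called. The pretreatment left a log2 difference of 2.23 ± 0.73 between pretreated and untreated cells for Il1b (limma adjusted p = 0.236). Without pretreated A that difference was 3.25 and called (adjusted p = 0.00698), and without pretreated B it was 1.55 and not called (adjusted p = 0.550). For Il1a the pretreatment difference was 0.57 ± 0.73 (limma adjusted p = 0.859), and pretreated A and C were at 22.5 and 20.0 units, within the range of untreated cells.

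**Figure D2:**
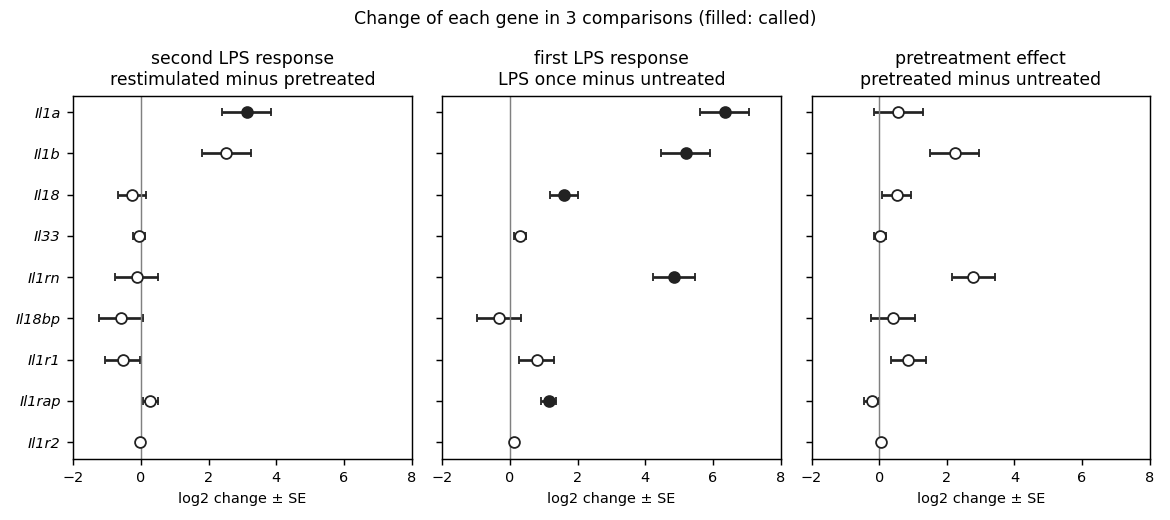
Log2 change of each gene, with its standard error as the bar, for restimulated minus pretreated, LPS once minus untreated and pretreated minus untreated cells (n = 3 per group); filled points are called. Il1a is filled in the second response, where Il1rn lies at -0.13, and 5 genes are filled in the first.

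Il1a was lower in restimulated than in LPS once cells, by a log2 difference of -2.65 ± 0.73 (limma adjusted p = 0.0366), and the groups did not overlap. For Il1b the difference was -0.43 ± 0.73 (limma adjusted p = 0.767, 95% interval -2.06 to 1.19), and -0.47 without restimulated C. All 3 restimulated Il1b values lay below all 3 LPS once values, where the LPS once values were near the top of the scale. The call for Il1a was lost without any 1 of 8 of the 12 arrays (each untreated and LPS once array, restimulated A and restimulated C), with adjusted p of 0.0567 to 0.108. Without restimulated C the log2 difference was -2.62, without restimulated A -1.83, and without restimulated B -3.50, the last called.

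The order of the group means was the same for Il1a and Il1b, with LPS once highest, then restimulated, pretreated and untreated. For Il1a the neighbours pretreated and untreated did not differ beyond their spread. For Il1b LPS once and restimulated, restimulated and pretreated, and pretreated and untreated were not called apart. The interaction, the second response minus the first, was -3.21 ± 1.03 for Il1a and -2.67 ± 1.03 for Il1b (limma adjusted p = 0.134 and 0.210). Leaving out 1 array at a time moved that of Il1a between -4.06, without restimulated B and called (adjusted p = 0.0318), and -2.40, without restimulated A and not called. It moved that of Il1b between -3.69, without pretreated A and called (adjusted p = 0.0102), and -1.98, without pretreated B and not called. Without restimulated C they were -3.18 and -2.70, neither called (adjusted p = 0.127 and 0.187).

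Il1rn, the receptor antagonist, rose strongly after the first LPS and gave no called second response. It had 7033, 7842 and 4201 units in LPS once cells, against 201, 339.9 and 111 in untreated cells. The log2 change was 4.85 ± 0.63 (limma adjusted p = 0.000358), 28.8-fold, and held without any of the 12 arrays. Pretreated cells had 1165, 3054 and 868 units, all above the untreated values. That difference was 2.78 ± 0.63 in log2 and was not called (limma adjusted p = 0.0922). With the replicate letter as a block it was 2.78 ± 0.24 and called (adjusted p = 0.00208). It was also called after quantile normalization (log2 2.89, adjusted p = 0.0443) and without restimulated C (adjusted p = 0.0490).

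Restimulated cells had 1226, 3016 and 635 units of Il1rn, close to those of pretreated cells letter by letter. The second response was -0.13 ± 0.63 in log2 (limma adjusted p = 0.939, 95% interval -1.55 to 1.29), and it was 0.03 after quantile normalization and 0.40 without restimulated C. The interaction was -4.98 ± 0.90 (limma adjusted p = 0.0189), the 1 call of the 9 genes, where 1.23% of all genes had a higher second response and 1.44% a lower one (223 and 262 genes, or 323 and 309 after quantile normalization). Limma called 0 of the 9 higher, also at an unadjusted p under 0.05, where 5 were lower (Il1a, Il1b, Il1rn, Il18 and Il1rap). The share of all genes at that unadjusted p was not counted. These 5 are the genes called in the first response, which enters the interaction with a minus sign, so the count is no separate result. The median log2 interaction of the 9 was -1.32, against -0.02 over all genes. The other 2 probe sets of Il1rn gave interactions of -4.89 and -5.05, both called in a fit of all probe sets. Without untreated C the interaction was -4.60 and not called (adjusted p = 0.0559). Without restimulated C it was -4.45 and called (adjusted p = 0.0173).

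Il1rn was also lower in restimulated than in LPS once cells, by -2.19 ± 0.63 in log2 (limma adjusted p = 0.0455), with no overlap between the groups. Without restimulated C the difference was -1.67 and not called (adjusted p = 0.108). In all, the call was lost without any 1 of 10 arrays, all but pretreated B and restimulated B, with adjusted p of 0.0518 to 0.130. The group order of Il1rn was LPS once, pretreated, restimulated and untreated, and the neighbours pretreated and restimulated did not differ beyond their spread. Differences between log2 values on the same array were compared 6 times, by exact two-sided permutation tests whose smallest p is 0.1 with 3 arrays against 3. In restimulated relative to pretreated cells Il1rn minus Il1b differed by -2.65 and Il1a minus Il1rn by 3.26, each with 1 sign in 3 of 3 letters (exact permutation p = 0.1, adjusted p = 0.15 for both). Il1a minus Il1b differed by -2.31, 2.38 and 1.75 in replicates A, B and C, with mixed signs (exact permutation p = 0.6, adjusted p = 0.72). Relative to LPS once cells Il1a minus Il1rn differed by -0.46, also with mixed signs (exact permutation p = 0.8, adjusted p = 0.8). The same comparisons against Il1b in LPS once cells are not read, since Il1b was near the top of the scale there.

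Il18, a ligand that induces interferon gamma in lymphocytes, rose moderately after the first LPS. It had 1573, 771 and 1240 units in LPS once cells, against 451, 374 and 298 in untreated cells, with no overlap. The log2 change was 1.59 ± 0.42 (limma adjusted p = 0.0160), 3.02-fold. The call was lost without untreated C, LPS once A or LPS once C (log2 1.45, 1.37 and 1.54, adjusted p = 0.0585, 0.0542 and 0.0512). Restimulated cells had 905, 313 and 308 units of Il18, against 731, 394 and 531 in pretreated cells. Those groups overlapped, with a log2 change of -0.26 ± 0.42 (limma adjusted p = 0.776), or -0.00 without restimulated C.

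The Il18 interaction was -1.85 ± 0.60 and not called (limma adjusted p = 0.137), and with the replicate letter as a block it was -1.85 ± 0.36 and called (adjusted p = 0.0291). Without restimulated A it was -2.35 and called (adjusted p = 0.0274). Il18 was -1.33 ± 0.42 in log2 in restimulated relative to LPS once cells (limma adjusted p = 0.0634), and was called with the replicate block (adjusted p = 0.00998) and without restimulated A (log2 -1.83, adjusted p = 0.00767). Without restimulated C the interaction was -1.60 and this difference -1.08, neither called (adjusted p = 0.147 and 0.148). Il18bp, whose product binds interleukin 18, was not called in any of the 5 comparisons. It had 626, 162 and 288 units in LPS once cells, against 735, 179 and 450 in untreated cells. In restimulated cells it had 595, 397 and 172 units, against 899, 429 and 378 in pretreated cells. Its first response was -0.33 ± 0.65 in log2 (limma adjusted p = 0.724), and the second -0.59 ± 0.65 (adjusted p = 0.647), or -0.11 without restimulated C (adjusted p = 0.977).

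Il1rap, the signalling chain that the interleukin 1 and interleukin 33 receptors share, was the receptor gene that rose. It had 284, 146 and 164 units in LPS once cells, against 87.3, 70.4 and 73.9 in untreated cells. The log2 change was 1.15 ± 0.22 (limma adjusted p = 0.00338), 2.22-fold, and without LPS once A it was 0.88, under 2-fold. Its next brightest probe sets gave 0.57 and 1.00, neither called in the fit of all probe sets, and the mean of its 5 probe sets gave 0.57. Restimulated cells had 97.2, 88.2 and 61.1 units, against 70.3, 67.8 and 55.1 in pretreated cells, with a second response of 0.27 ± 0.22 (limma adjusted p = 0.518), or 0.44 without restimulated C (adjusted p = 0.443). The restimulated values lay below all LPS once values, with a log2 difference of -1.09 ± 0.22 (limma adjusted p = 0.0102). That difference was under 2-fold without LPS once A or restimulated C (log2 -0.82 and -0.92), with 64 units added (log2 -0.81) and as the mean of its 5 probe sets (log2 -0.45). The Il1rap interaction was -0.87 ± 0.32 and not called (limma adjusted p = 0.181), or -0.71 without restimulated C (adjusted p = 0.196).

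In all, 3 of the 9 genes were lower in restimulated than in LPS once cells (Il1a, Il1rn and Il1rap) and 0 higher, where 3.18% of all genes were lower and 2.48% higher (578 and 451 genes, or 526 and 583 after quantile normalization). Limma found 0 of the 9 higher at an unadjusted p under 0.05 too. Without restimulated C 0 of the 9 were called lower, and on the 6 arrays of these groups alone 0 were. In pretreated against untreated cells limma called 0 of the 9, while 2 were higher and 0 lower at an unadjusted p under 0.05 (Il1b and Il1rn). Among all genes 0.291% were higher and 0.308% lower in that comparison, which shares its 3 untreated arrays with the first response.

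Il1r1, the receptor chain that binds interleukin 1, had 160, 130 and 83.3 units in LPS once cells, against 64.2, 91.3 and 42.0 in untreated cells. These groups overlapped, and the log2 change of 0.78 ± 0.51 was not called (limma adjusted p = 0.270). In restimulated cells it had 51.7, 175 and 60.1 units, against 72.8, 284 and 97.1 in pretreated cells, lower in 3 of 3 letters. That change was -0.54 ± 0.51 (limma adjusted p = 0.588), or -0.34 without restimulated C (adjusted p = 0.894). A second Il1r1 probe set stayed between 8.32 and 11.1 units on all arrays. Il1r2, the decoy receptor, lay between 19.8 and 25.7 units on the 12 arrays. Il33, an alarmin stored in nuclei of barrier tissue cells, lay between 10.1 and 12.2 units on 11 arrays and at 31.8 on LPS once A. Of these values all but that of LPS once A for Il33 were below the median of their array, a difference was not detectable at such intensities, and neither gene was called.

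Part of the spread within groups followed the replicate letter. Il18, Il18bp and Il1rap were highest in replicate A in 4 of 4 groups, and Il1b and Il1rn were highest in replicate B in 4 of 4. Il1rn was lowest in replicate C in 4 of 4 groups. Averaged over the 4 groups, replicate B deviated from the group means by 0.71 log2 units for Il1a, 0.54 for Il1b, 0.83 for Il1rn and 0.63 for Il1r1. Replicate A deviated by -0.63 for Il1a, -0.52 for Il1b and 0.84 for Il18bp.

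**Figure D3:**
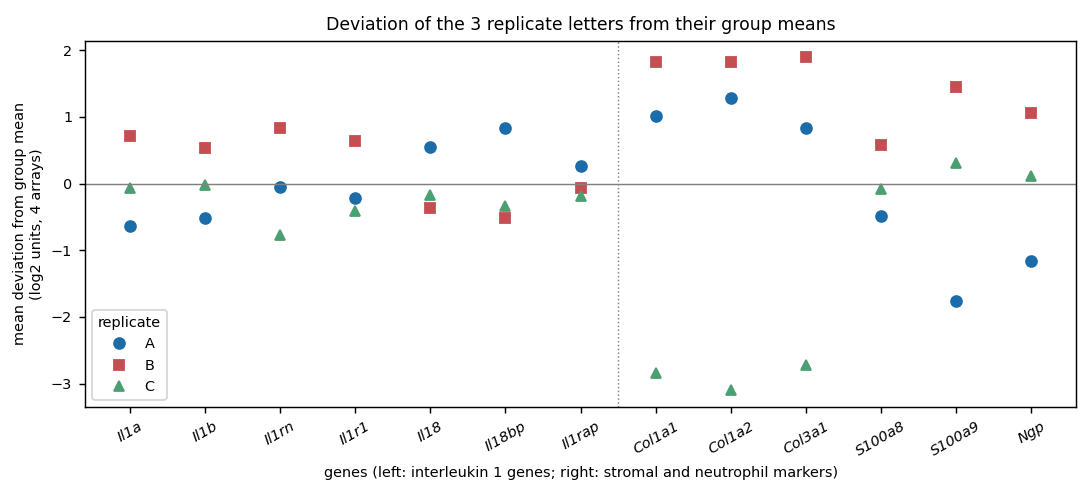
Mean deviation of the 4 arrays of each replicate letter from their group means, in log2 units, for 7 interleukin 1 genes (left of the dotted line) and 6 markers of stromal cells and neutrophils (right). Replicate B is highest for Il1a, Il1b, Il1rn and Il1r1, replicate A for Il18, Il18bp and Il1rap, and the collagen genes are low in replicate C.

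Markers of other cells moved with the letters. The summed intensity of 6 neutrophil and precursor markers was 4093 to 5322 units on B arrays, 1827 to 3774 on C arrays and 480 to 2783 on A arrays. Of these 6, Mpo and Elane reached at most 33.7 units on the 12 arrays, Camp at most 218 and Ngp at most 959. S100a8, S100a9 and Ngp carried most of the sum. The sum of 10 stromal and endothelial markers was 5122 to 8459 units on B arrays, 2597 to 5426 on A arrays and 380 to 1062 on C arrays. By group, the neutrophil sum ran from 2318 to 4542 units in restimulated, 2429 to 4652 in pretreated, 2213 to 5322 in LPS once and 480 to 4093 in untreated cells. The stromal sum ran from 380 to 5444, 442 to 5426, 1062 to 7341 and 437 to 8459 units in the same groups. The neutrophil sum hides members that went different ways. In the same group order, S100a8 had means of 2853, 3104, 2001 and 939 units, and Camp 169, 96.8, 132 and 60.7. S100a9 had 299, 296, 800 and 733 units, and Ngp 83.0, 76.7, 449 and 353. The part of these cells in the levels of the family was not tested. Within each letter Il1a, Il1b, Il1rn, Il18 and Il1rap were higher in LPS once than in untreated cells. In replicates A, B and C these log2 changes were 6.24, 6.41 and 6.37 for Il1a and 4.82, 4.69 and 6.06 for Il1b. They were 5.02, 4.46 and 5.06 for Il1rn, 1.77, 1.01 and 2.00 for Il18, and 1.54, 0.91 and 1.00 for Il1rap.

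The genes around the family were read from lists of further ligands and receptors, of maturation and release, and of receptor signalling. Of 7 other family ligands and receptors limma called 0 in each of the 5 comparisons. Of all genes, 0.291% to 9.10% were called by comparison and direction, so 0 of 7 does not set this list apart. At an unadjusted p under 0.05, 2 were higher in the first response, 1 higher in the second and 1 lower in level after LPS. The share of all genes at that p was not counted. Il1rl2, the receptor chain for interleukin 36, reached 336 units, and the other 6 reached at most 73.4 units.

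Of 9 genes of maturation and release, 3 rose and 1 fell after the first LPS, where 3.90% of all genes rose and 9.10% fell. Nlrp3, the inflammasome sensor, rose by 3.05 ± 0.26 (SE of log2 change, limma adjusted p = 3.56e-05), and Casp4, a sensor of LPS inside cells also known as caspase-11, by 2.91 ± 0.28. Casp1, which cleaves the precursors of interleukin 1 beta and interleukin 18, rose by 1.09 ± 0.25, or 0.87 and under 2-fold without LPS once A. P2rx7, the ATP-gated channel that triggers Nlrp3, had a log2 change of -3.47 ± 0.36 (adjusted p = 9.27e-05). In the second response, where 0.665% of all genes rose and 1.29% fell, Nlrp3 rose by 1.79 ± 0.26 and Casp4 by 1.36 ± 0.28, and P2rx7 changed by -1.63 ± 0.36 (limma adjusted p = 0.00869, 0.0289 and 0.0368). Casp1 had 0.00 ± 0.25. No interaction was called among the 9 genes (limma, 1 higher and 4 lower at an unadjusted p under 0.05), while P2rx7 was called higher and Casp4 lower in the fit blocked on the letter and after quantile normalization. Leaving out 1 array called P2rx7 higher without restimulated C, P2rx7 higher and Nlrp3 lower without LPS once A, and Casp4 lower without restimulated A. The Casp4 call was lost without untreated A, pretreated A, pretreated C or restimulated A (adjusted p = 0.0520, 0.112, 0.129 and 0.0633). The P2rx7 call was lost without any 1 of 8 arrays (each untreated array, LPS once B, pretreated A and C, restimulated A and C), with adjusted p of 0.0578 to 0.135. Relative to LPS once cells, restimulated cells had lower Casp4 and Nlrp3, at log2 differences of -1.98 ± 0.28 and -1.57 ± 0.26, and higher P2rx7, at 2.12 ± 0.36.

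**Figure D4:**
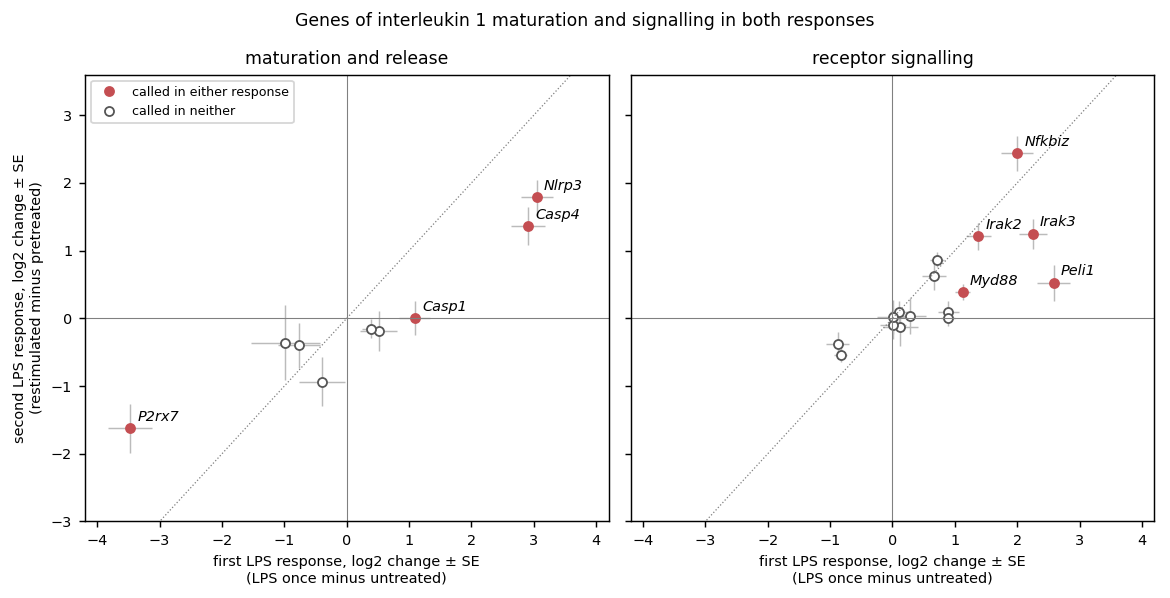
Log2 change in the first response (horizontal) and the second (vertical), with standard errors as bars, for 9 genes of maturation and release and 16 of receptor signalling (n = 3 per group, no array shared between the axes). Red points are called in either response, and the dotted line marks equal change. P2rx7 and Nfkbiz lie above it, and Nlrp3, Casp4 and Peli1 are among the red points below.

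Of 16 genes of receptor signalling, 5 rose after the first LPS and 0 fell, with 2 lower at an unadjusted p under 0.05, where 3.90% of all genes rose and 9.10% fell. Peli1, a ubiquitin ligase of the pathway, rose by 2.59 ± 0.26, the inhibitory kinase-like Irak3 by 2.25 ± 0.22 and Nfkbiz, a nuclear regulator of NF-kB, by 1.99 ± 0.26 (limma adjusted p = 9.17e-05, 7.94e-05 and 0.000319). The kinase gene Irak2 rose by 1.38 ± 0.20 and the adaptor gene Myd88 by 1.13 ± 0.12. In the second response 3 of the 16 rose and 0 fell, with 1 lower at an unadjusted p under 0.05, where 0.665% of all genes rose and 1.29% fell. Nfkbiz rose by 2.44 ± 0.26, Irak3 by 1.25 ± 0.22 and Irak2 by 1.21 ± 0.20 (limma adjusted p = 0.00293, 0.0187 and 0.0137). The Nfkbiz interaction was 0.44 ± 0.36 and not called (limma adjusted p = 0.618). The Irak2 call was lost without pretreated A or C (adjusted p = 0.0544 and 0.0672). The Irak3 call was lost without pretreated A (log2 0.97), pretreated C, restimulated A or restimulated C (adjusted p = 0.0656, 0.0564 and 0.0524). Peli1 had 0.53 ± 0.26 in the second response and an interaction of -2.06 ± 0.37 (limma adjusted p = 0.0196), not called without untreated A or B (adjusted p = 0.0527 and 0.0555). Irak3 was called lower too without pretreated A, and Tab2 without pretreated B. Peli1 and Tab2, an adaptor of the kinase TAK1, were lower in restimulated than in LPS once cells, by log2 differences of -1.58 ± 0.26 and -1.20 ± 0.16, where 3.18% of all genes were lower.

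Likeness of pattern was described by Pearson's r of log2(intensity + 16) over the 12 arrays, among 3418 genes whose group means spanned at least 1 log2 unit. The arrays share their groups and replicate letters, so r mostly follows the 4 groups. Nearest to Il1a was Il6, a cytokine of acute inflammation (r = 0.995), then Foxp4 (r = 0.983) and Malt1 (r = 0.979). Il6 had mean log2 values of 9.48 in restimulated, 5.46 in pretreated, 12.46 in LPS once and 4.82 in untreated cells. Nearest to Il1b were Acod1, which makes itaconate (r = 0.987), Clec4e, a receptor for mycobacterial glycolipid (r = 0.984), and Ptges, a prostaglandin E synthase (r = 0.971). Acod1 had mean log2 values of 13.39 in restimulated, 10.75 in pretreated, 13.60 in LPS once and 7.17 in untreated cells. Nearest to Il1rn were Srgn, the proteoglycan of secretory granules (r = 0.960), Mmp13, a collagenase (r = 0.956), and Cd274, the ligand of PD-1 (r = 0.953).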

How the data were processed

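RNA of 12 cultures was measured on Affymetrix arrays, 1 array a culture. Per the labels' protocols, RNA was isolated with TriFast and labelled by the manufacturer's standard procedure. The authors deposited 1 intensity per probe set and array on a linear scale. Which program, background correction and scaling made them is not given in the sources. No detection calls were used. The number of arrays limits the precision. Of 45101 probe sets, 64 were controls, 34945 had 1 gene symbol, 932 had several and 9160 were unnamed here. Through Entrez identifiers, 34741 of the single symbols were matched to current RefSeq names (GRCm38.p6).

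Each gene took its probe set with the highest mean log2(intensity + 16) over the 12 arrays. Limma 3.58.1 in R 4.3.3 fitted the 4 group means on all arrays (8 residual degrees of freedom) and was tested on simulated data. Calls needed a Benjamini-Hochberg adjusted p under 0.05 and a 2-fold change. P-values measure the spread between these cultures. The 5 comparisons were the first and second LPS response, the pretreatment effect, the interaction and the level after LPS. The text names all members, the 3 called genes of each pathway list with the largest change in a comparison, and the 3 genes most like Il1a, Il1b and Il1rn. In the first response Casp1, Irak2 and Myd88 fall outside this rule and were named after their values were seen. The same holds for Irak3, Nfkbiz and Tab2 in the interaction. Also named outside this rule are P2rx7, Casp4 and Nlrp3 in the interaction, Casp1 and Peli1 in the second response, and Il1rl2. The family, lists and tests were chosen with earlier results of these data known, and the within-array differences after seeing the values.

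The letters pair the arrays: deviations from group means correlated at r of 0.250 to 0.656 over 18 pairs with the same letter and -0.482 to 0.0134 over 36 pairs with different letters. Blocked values are given where they change a call of the family. For the pathway lists only the changed calls are named.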

Additional observations from a re-analysis of the deposited data

Results flagged for a closer look

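The response of Il1rn to LPS differed between cells without and with pretreatment, by the test of the difference itself. The interaction was -4.98 ± 0.90 in log2 (limma adjusted p = 0.0189, n = 3 per group). By letter, the second response was 0.07, -0.02 and -0.44 in replicates A, B and C, against 5.02, 4.46 and 5.06 in the first.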

How the results depend on the processing

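The number of the 9 genes called depended on the setting in each comparison except the first response, where it stayed at 4 or 5 under the settings that kept all arrays. For the pretreatment effect it was 1 in place of 0 after quantile normalization, with the filter on dim genes (which left out Il33 and Il1r2), with the replicate block, and with the block after quantile normalization or without restimulated C. For the second response it was 0 in place of 1 with a pseudocount of 64, in a fit of only the groups compared and in the block without restimulated C, and 2 with the filter on dim genes. For the interaction it was 2 in place of 1 with the replicate block, alone, after quantile normalization and without restimulated C. For the level after LPS it was 0 in place of 3 in a fit of only the groups compared, which has fewer arrays, 2 with a pseudocount of 64 and with the mean of all probe sets (without Il1rap), and 4 with the filter on dim genes, the replicate block, alone or after quantile normalization, and eBayes with trend and robust settings. Leaving out 1 array at a time gave 3 to 5 genes called in the first response, 0 to 1 for the pretreatment effect, 0 to 2 in the second response, 0 to 2 in the interaction and 0 to 3 in the level after LPS. For the other settings the cause was not tested. Beyond Il1rn in the pretreatment effect and Il18 in the interaction and level after LPS, the replicate block changed no other call of the 9 genes. The block after quantile normalization and the block without restimulated C were chosen after seeing the data. A fit of only the groups compared was not possible for the interaction, which uses all 4 groups. No called value changed sign. Precision is limited by 3 arrays per group, by intensities under 100 units for Il33, Il1r2 and part of Il1a, Il1r1 and Il1rap, and by the top of the scale for Il1b.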
